A study of Mus musculus with 2 samples.

Results

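The genes described here are known for secretion and surface protection by the estrogen-stimulated uterine epithelium. They were chosen by name with earlier results of these data known, and the study itself lists Lcn2 and Padi1 among its most increased genes. The 9 listed here were Ltf, Lcn2, Muc1, Sprr2f, Sprr2b, Sprr2e, Clca3, Padi1 and Padi2. Of these, 7 had a row among the 14678 genes of the deposited table, and Sprr2b and Sprr2e had none and are not analysed here. All uteri, of both groups, came from mice with the genotype VEGFtetO/tetO/beta-AKtg/wt, in which 4 tet operator copies sit in both alleles of the VEGF promoter and a beta-actin driven tetR-Krab repressor is present in all tissues. Littermates were 9 to 10 weeks old, had been mated to VEGF tetO/tetO males, and were taken at gestation day 2.5. Dox+ mice ate chow with doxycycline, which keeps the repressor off the VEGF promoter, so that VEGF was normal. Dox− mice had been without doxycycline since the age of 3 to 4 weeks, so that VEGF was repressed. Repression was not limited to the uterus, and loss of VEGF and loss of doxycycline cannot be told apart in this design. RNA of 3 uteri was pooled for each condition, and each pool gave 1 library, so that no test between conditions was possible. The ratios below compare these libraries, with 95% intervals that cover counting error only.

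Estrogen drives the uterine epithelium of the mouse to grow and secrete around mating, and progesterone, rising in the days before implantation, holds this back and brings up a program of its own. Lactotransferrin (Ltf) is the classic secreted protein of this estrogen response. Mucins coat the cell surface, small proline-rich proteins toughen it, and peptidylarginine deiminases convert arginine in proteins to citrulline.

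The libraries held 5985925 clean tags in Dox+ and 5844314 in Dox−, recovered from the deposited counts and TPM. The TPM value here is the count of a gene relative to all clean tags of the library, without a length correction, so that levels were compared within a gene and not between genes. The repressed gene itself, Vegfa (chromosome 17, 46153942 to 46169326), had 247 tags in Dox+ and 125 in Dox−, 1.93-fold lower (1.55 to 2.41). Of the 12 markers of simple epithelium examined, all were in the table, and so were all 8 markers each of uterine stroma, smooth muscle and endothelium. Genes with a combined count of at least 200 tags numbered 6547, and the median of their log2 ratios, Dox− over Dox+, was 0.03.

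Promoter sequence was examined because these genes differed in the same direction. For 6 of the 7 genes with a row, RefSeq gave a start, and the 250 bases before it matched the NCBIM37 assembly (mm9) exactly once. Both strands were searched for the estrogen response element GGTCANNNTGACC and for its half-site GGTCA. The full element was in none of the 6 and in 0.0639% of 32851 promoters of the same length. The half-site lay in 2 of the 6, Ltf and Sprr2f, and in 35.2% of all promoters. It began 45 bases before the start of Ltf, and in Sprr2f it lay on the opposite strand, starting 219 bases before the start of the gene. Sprr2f also held the AP-1 letters TGANTCA, which were in 6.75% of all promoters. Below are the promoters with a half-site and those of Lcn2 and Padi1, which had the largest ratios, 5′ to 3′ on the strand of the gene and with the half-site in capitals. They lie at chr9:110921546-110921795 (plus strand), chr3:92168859-92169108 (plus strand), chr2:32243318-32243509 (minus strand, ended where the GENCODE gene begins) and chr4:140401694-140401943 (minus strand).
Ltf: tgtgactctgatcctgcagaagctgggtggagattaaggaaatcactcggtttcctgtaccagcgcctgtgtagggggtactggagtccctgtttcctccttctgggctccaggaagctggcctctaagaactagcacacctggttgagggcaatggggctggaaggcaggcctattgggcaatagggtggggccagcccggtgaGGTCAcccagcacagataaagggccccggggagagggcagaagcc
Sprr2f: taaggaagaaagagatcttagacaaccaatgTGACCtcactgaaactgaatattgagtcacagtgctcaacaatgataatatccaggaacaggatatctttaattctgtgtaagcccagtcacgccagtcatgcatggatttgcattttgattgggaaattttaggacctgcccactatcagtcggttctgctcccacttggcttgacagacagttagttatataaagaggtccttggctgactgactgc
Lcn2: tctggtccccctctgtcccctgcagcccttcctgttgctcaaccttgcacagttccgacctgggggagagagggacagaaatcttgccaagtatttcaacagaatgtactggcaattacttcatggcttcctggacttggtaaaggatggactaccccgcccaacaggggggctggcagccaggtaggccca
Padi1: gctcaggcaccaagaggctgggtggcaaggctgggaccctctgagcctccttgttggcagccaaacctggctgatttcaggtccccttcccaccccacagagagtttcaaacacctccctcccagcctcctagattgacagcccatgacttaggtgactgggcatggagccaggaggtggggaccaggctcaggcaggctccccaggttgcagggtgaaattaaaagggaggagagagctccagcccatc

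A motif match describes letters and is not a binding site. The lack of a match says only that these letters were not in these windows. This holds for the full element in Ltf as for the half-site in Lcn2 and Padi1. Sequence farther upstream, and imperfect forms of the full element other than the half-site, were not searched.

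All 7 genes had a higher TPM in Dox− than in Dox+, and each interval lay above 1. Of the 6 with a combined count of at least 200, 6 were at least 1.5-fold higher in Dox− and 0 were lower, where 15.2% of all 6547 genes were at least 1.5-fold higher and 14.7% at least 1.5-fold lower, 994 and 961 genes. Per tag of keratins 8, 18 and 19, a scale of the epithelium described further on, these were 383 and 2044 genes, and 5 of the 6 were higher. The median log2 ratio of the 6 was 1.66. Lcn2 and Padi1 were more than 5-fold higher, where 0.642% of all genes were. Both reached 200 tags only through Dox−. Clca3, with 81 tags in Dox+ and 146 in Dox−, would not have reached it at its Dox+ level in both libraries. The place of Lcn2, Padi1 and Clca3 among the genes at this minimum thus depends in part on the difference itself. Nothing is read from these shares for them, nor from the count of 6 set against these shares. Ltf, Sprr2f and Muc1 had at least 200 tags in Dox+ alone. Padi2, with a combined count of 178, did not reach the minimum. Together the 7 genes held 2235 tags in Dox+ and 7836 in Dox−, or 373 and 1341 TPM, 3.59-fold more (3.43 to 3.77). With pooled RNA of whole uteri, more cells of a type and more RNA per cell cannot be told apart.

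**Figure D1:**
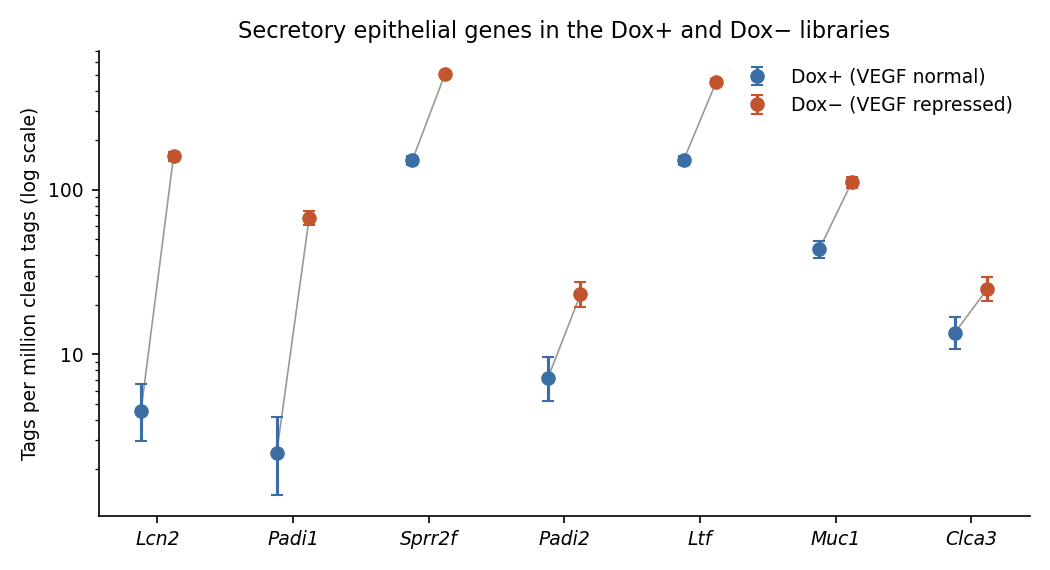
TPM (log scale) of the 7 genes with a row, in the Dox+ library (blue) and the Dox− library (orange), ordered by ratio. Points are single libraries of 3 pooled uteri and bars are exact 95% Poisson intervals of the count. The orange point lies above the blue point for each gene, with the longest steps for Lcn2 and Padi1.

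Of the genes for secreted proteins that bind iron or its carriers, Ltf (chromosome 9, 110921796 to 110945270) encodes an iron-binding antimicrobial protein of uterine fluid. It had 905 tags in Dox+ and 2639 in Dox−, or 151 and 452 TPM, 2.99-fold more (2.77 to 3.22). Lcn2 (chromosome 2, 32240153 to 32243317) encodes lipocalin 2, which binds bacterial siderophores and so withholds iron. It had 27 tags in Dox+ and 935 in Dox−, or 4.51 and 160 TPM. Its ratio of 35.5 (24.2 to 54.1) was the largest of the 7. This ratio ranked 6 among the 6547 genes, a set that Lcn2 entered only through Dox−, and nothing is read from the rank. Lcn2 held 1.21% of the tags of the 7 genes in Dox+ and 11.9% in Dox−, and Ltf 40.5% and 33.7%.

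Muc1 (chromosome 3, 89032979 to 89037303) encodes a transmembrane mucin of the apical surface, which is known to hinder attachment of the embryo. It had 260 tags in Dox+ and 650 in Dox−, or 43.4 and 111 TPM, 2.56-fold more (2.21 to 2.97). Clca3 (chromosome 3, 144667501 to 144695740), called Clca1 in the later RefSeq naming, encodes a secreted regulator of calcium-activated chloride channels found in mucus-producing cells. It had 81 tags in Dox+ and 146 in Dox−, or 13.5 and 25.0 TPM, 1.85-fold more (1.40 to 2.45). This was the smallest ratio of the 7, and the lower end of its interval was under 1.5.

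Sprr2f (chromosome 3, 92169109 to 92170364) encodes a small proline-rich protein of the cornified envelope. Sprr2f had 904 tags in Dox+ and 2936 in Dox−, or 151 and 502 TPM, 3.33-fold more (3.09 to 3.59). The Sprr2 genes resemble each other, and the authors counted only unambiguous tags. Of the 589 distinct windows of 21 bases in the GENCODE transcript of Sprr2f, 18.0% also occurred in transcripts of 11 other genes, most often Sprr2e. The shares were 42.0% for Sprr2b and 29.9% for Sprr2e, the members without a row. For Lcn2, Muc1 and Clca3 no window was shared, and for Ltf, Padi1 and Padi2 at most 3.56%.

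Padi1 (chromosome 4, 140368898 to 140401693) had 15 tags in Dox+ and 395 in Dox−, or 2.51 and 67.6 TPM. Its ratio was 27.0 (16.2 to 48.7), with a wide interval because of the 15 tags. Padi2 (chromosome 4, 140462259 to 140508501), the deiminase of the same gene cluster with the broadest tissue distribution, had 43 tags in Dox+ and 135 in Dox−, or 7.18 and 23.1 TPM, 3.22-fold more (2.27 to 4.65).

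**Figure D2:**
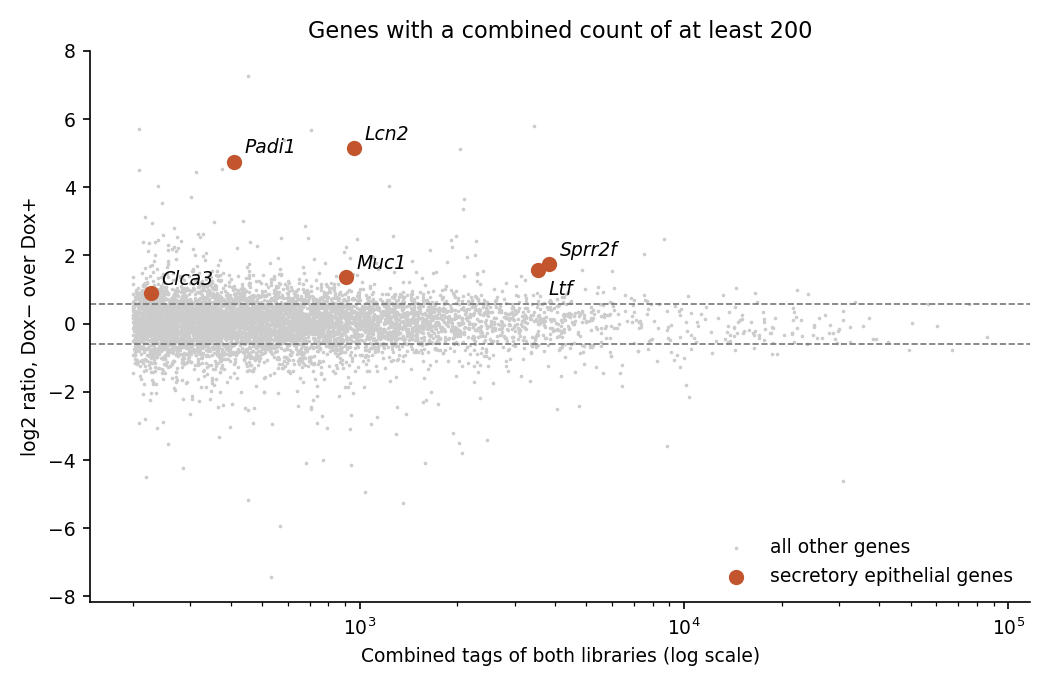
Log2 ratio, Dox− over Dox+, against the combined tags of both libraries (log scale) for genes with a combined count of at least 200 (grey), with 6 of the secretory epithelial genes in orange. The dashed lines mark 1.5-fold. All 6 lie above the upper line, and Padi2, with 178 tags, is not drawn.

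The ratios were not alike. A ratio of 2 genes' ratios does not depend on library size, and its exact conditional interval excluded 1 for 16 of the 21 pairs among the 7 genes. In the order Lcn2, Padi1, Sprr2f, Padi2, Ltf, Muc1 and Clca3, the 2 leading genes stood apart from the rest. The ratio of Lcn2 was 1.32 times that of Padi1 (0.643 to 2.59), so that the counts did not settle their order. The ratio of Padi1 was 8.11 times that of Sprr2f (4.82 to 14.7) and 8.35 times that of its relative Padi2 (4.38 to 16.7). Among neighbours lower in the order, the ratio of Sprr2f was 1.03 times that of Padi2 (0.710 to 1.48), that of Padi2 was 1.08 times that of Ltf (0.752 to 1.57) and that of Ltf was 1.17 times that of Muc1 (0.987 to 1.38), none beyond counting error. The ratio of Lcn2 was 11.9 times that of Ltf (8.04 to 18.3). The ratio of Muc1 was 1.39 times that of Clca3, with an interval from just above 1 to 1.90.

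Relatives from the same gene families were compared next, where they had a combined count of at least 20. None but Muc4 and Trf reached 200. The Sprr family had a row for 2 of 15 relatives. Sprr1a, a cornified envelope gene of another Sprr class, had 8 tags in Dox+ and 53 in Dox−, 6.79-fold more (3.21 to 16.5). Sprr2g (chromosome 3, 92177837 to 92179151), which lies just downstream of Sprr2f and which RefSeq lists as a transcribed pseudogene, went the opposite way, with 86 tags in Dox+ and 51 in Dox−, 1.65-fold fewer (1.15 to 2.38). The ratio of Sprr2f was 5.47 times that of Sprr2g (3.79 to 7.97).

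Padi4, the deiminase known for histones and neutrophils, had 33 tags in Dox+ and 64 in Dox−, 1.99-fold more (1.29 to 3.12), and the ratio of Padi1 was 13.5 times as large (6.68 to 28.3). Of the other mucins, Muc4, a transmembrane mucin, had 66 tags in Dox+ and 270 in Dox−, 4.19-fold more (3.19 to 5.57). Its ratio was 1.64 times that of Muc1 (1.20 to 2.26). Muc20, another transmembrane mucin, had 8 and 43 tags, 5.51-fold more (2.56 to 13.6). The secreted gel-forming mucins were near 0, with 2 tags of Muc2 in each library and 0 and 2 of Muc5b. Clca5, with 21 tags in Dox+ and 3 in Dox−, differed in the opposite direction to Clca3, 6.83-fold fewer (2.04 to 35.8).

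The iron carriers were divided. Trf, the serum transferrin, had 519 tags in Dox+ and 321 in Dox−, 1.58-fold fewer (1.37 to 1.82). The ratio of Ltf was 4.71 times that of Trf (4.01 to 5.54). Mfi2, the membrane-bound transferrin relative, had 2 and 27 tags, a ratio of 13.8 (3.48 to 120). The lipocalins beside Lcn2 did not share its difference, since Rbp4, the retinol carrier, had 44 and 41 tags, and Apod had 98 and 38, 2.52-fold fewer (1.72 to 3.77). Of the receptors, Lrp2 (megalin), an endocytic receptor that takes up Lcn2 and many other ligands, had 534 tags in Dox+ and 0 in Dox−, at least 174-fold lower when 3 tags were set as the floor of the library, while the exact 95% interval of the counts reached down to 141-fold. Slc22a17, the other receptor described for Lcn2, had 132 and 68 tags, 1.90-fold fewer (1.40 to 2.58). Lrp1, which binds Ltf, had 585 and 812 tags, a ratio of 1.42 (1.28 to 1.58).

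**Figure D3:**
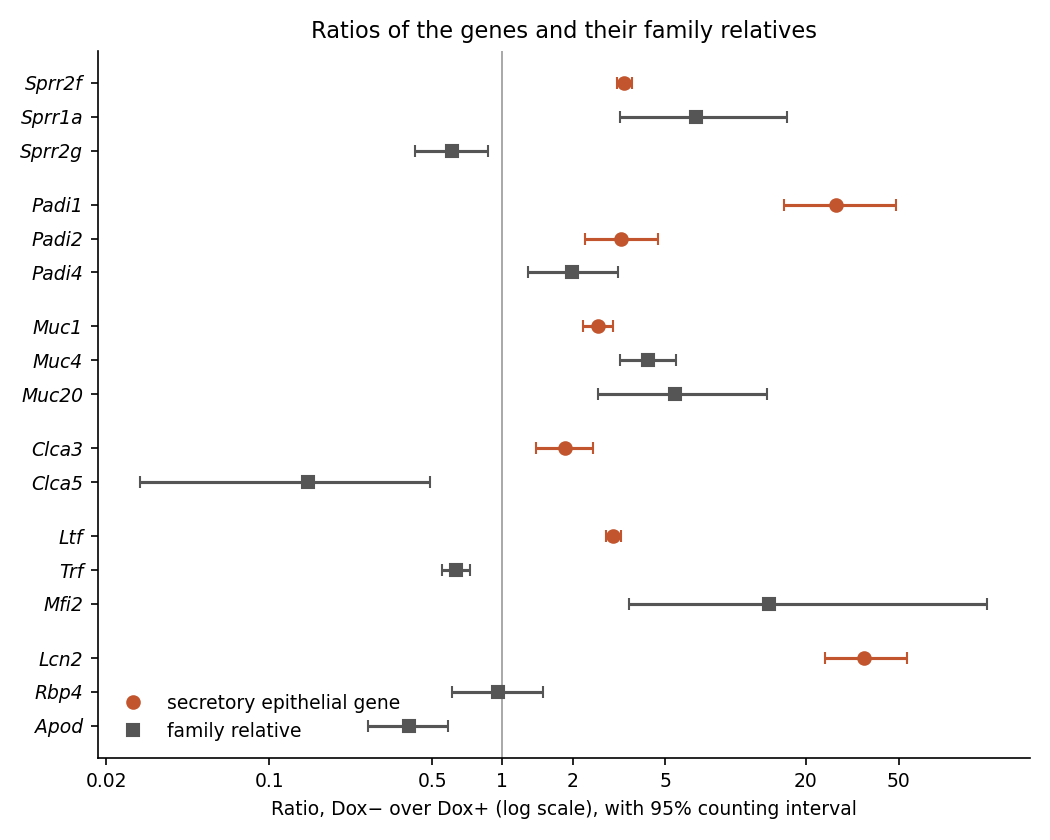
Ratio of TPM, Dox− over Dox+ (log scale), for the 7 genes (orange circles) and for their relatives with a combined count of at least 20 (grey squares), grouped by family. Bars are exact 95% intervals that cover counting error only. Sprr2g, Clca5, Trf and Apod lie below 1, while their relatives Sprr2f, Clca3, Ltf and Lcn2 lie above.

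Markers of simple epithelium were together higher in Dox−. The 12 markers summed to 7696 tags in Dox+ and 10848 in Dox−, 1.44-fold more (1.40 to 1.49). They did not all differ in one direction. Among the 11 with enough tags 5 were at least 1.5-fold higher, 2 lower (Cldn3 and Cldn4, tight junction genes) and 4 between. Those higher included Elf3, an epithelial transcription factor, with 185 and 1083 tags and Cldn7, another tight junction gene, with 877 and 2263, and those between included Krt8 with 1330 and 1481 and Krt19 with 1554 and 2046. Keratins 8, 18 and 19 together were 1.26-fold higher. When the tags of the 7 genes were taken per tag of these 3 keratins, each ratio was still above 1. Lcn2 was 28.1-fold higher on this scale, Padi1 21.4-fold, Sprr2f 2.64-fold, Ltf 2.37-fold, Muc1 2.03-fold and Clca3 1.46-fold. Per tag of all 12 markers Clca3 was 1.28-fold higher and Muc1 1.77-fold. The 8 uterine stroma markers held 52925 tags in Dox+ and 58791 in Dox−, 1.14-fold more, and went both ways. Of these the collagen genes Col1a1 and Col3a1 had 23017 and 33696, and 18514 and 17098 tags, and Lum was 1.84-fold higher, while Hoxa10 and Hoxa11 were 2.87-fold and 3.20-fold lower. Smooth muscle markers held 38945 and 26238 tags, led by Tagln with 11417 and 8854, Actg2 with 7436 and 5086 and Myh11 with 4609 and 3169. Endothelial markers held 1355 and 887 tags, led by Cdh5 with 446 and 216, Pecam1 with 243 and 253 and Vwf with 177 and 148.

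Ltf and Lcn2 are also proteins of neutrophil granules, and markers of neutrophils were higher in Dox− too. Of 15 markers, 8 had a row, and together they held 160 tags in Dox+ and 350 in Dox−, 2.24-fold more (1.85 to 2.72). S100a8 had 24 and 98 tags, S100a9 9 and 71, and Mpo 9 and 47, while Mmp8 had 81 and 83 and Cxcr2 3 and 0. Elane, Camp, Ngp, Cd177, Retnlg, Ly6g and Ctsg had no row. The part of neutrophils in the values of Ltf and Lcn2 was not tested. Sprr2f and Padi1 are also genes of stratified squamous epithelium, whose defining markers were at or near 0. Only 5 of 14 had a row, Krt1, Krt4, Krt14 and Trp63 had at most 6 tags in either library, and Sbsn had 34 and 55. Krt5, Krt6a, Krt10, Krt13, Ivl, Lor, Flg, Dsg1a and Dsg3 had no row.

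Other genes of the estrogen response in the uterus were taken as a list of 20, all in the table. Of the 14 with enough tags, 6 were at least 1.5-fold higher in Dox−, 0 lower and 8 between. Their median log2 ratio was 0.24 by clean tags, beside 0.03 for all genes. It turned negative per tag of keratins 8, 18 and 19 or of the 12 epithelial markers. These scales lower every gene alike, and the median of all genes was then -0.30 and -0.50. Among all genes 15.2% were higher and 14.7% lower. Those higher were Oxtr, the oxytocin receptor, with 84 and 593 tags, Aqp5, a water channel, with 36 and 212, Prom1 with 152 and 831, Klf4 with 86 and 279, Cebpb with 258 and 692 and Pgr, the progesterone receptor, with 687 and 1251. At their Dox+ level in both libraries Oxtr, Aqp5 and Klf4 would not have reached the minimum count. The count of 6 depends in part on the difference itself, and nothing is read from it against the shares of all genes. Ckb and Igf1, the members of this list with the most tags, differed little, while Pgr, next in tags, was among those higher. Ckb, the brain-type creatine kinase long known as an estrogen-induced protein, had 8071 and 6534 tags, and Igf1 had 1749 and 1857. Areg, the growth factor amphiregulin, had 31 and 0 tags and was too low to be counted among the 14. It responds to both hormones and also stands in the progesterone list below. C3, the complement component secreted by the estrogen-treated uterine epithelium, had 443 and 538 tags, a ratio of 1.24 (1.10 to 1.41). The estrogen receptor Esr1 had 165 and 262 tags, 1.63-fold more (1.33 to 1.99), the one gene of 5 receptors and coregulators with enough tags that passed 1.5-fold.

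Of 14 progesterone-responsive uterine genes, 9 had enough tags, and 0 of these were higher and 8 lower, where 15.2% and 14.7% of all genes were, with a median log2 ratio of -3.60. This list was chosen with results known. The study itself names Lrp2, Ihh, Fst, Hdc, Mt2 and Calb1 of this list among its most reduced genes. The direction of the list is thus no independent evidence. At their Dox− level in both libraries Lrp2, Fst and Ihh would not have reached the minimum count. The count of 8 and the median depend in part on the difference itself, and nothing is read from them against all genes. Mt2, a metallothionein, had 8168 and 660 tags. Hdc, which makes histamine, had 1928 and 137, and Calb1, a calcium-binding protein, 1753 and 184. Fst, which binds activins, had 725 and 44, and Hand2, a stromal transcription factor, 985 and 143. Ihh, the epithelial signal of progesterone action, had 646 tags in Dox+ and 37 in Dox−, and Il13ra2 had 180 and 6. Areg, Calca and Irg1 had 31, 37 and 37 tags in Dox+ and 0 in Dox−, and with the floor of 3 tags Areg was at least 10.1-fold lower, while its exact 95% interval reached down to 7.73-fold. Nr2f2, with 1012 and 660 tags, was just short of 1.5-fold. Progesterone itself was not measured.

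The table's own gene ontology column gave a broader set, used after the values had been seen. It assigned 109 genes to the response to estrogen stimulus, and of the 7 genes only Sprr2f was among them. Of the 53 others with enough tags, 12 were at least 1.5-fold higher and 6 lower, beside 15.2% and 14.7% of all genes, and their median log2 ratio was -0.01, beside 0.03 for all genes. Oxtr, Wnt7a, Pam and Insr among the higher, and Ihh among the lower, reached the minimum only through the library with more tags. Terms shared by members joined Padi1 and Padi2 (peptidyl-arginine modification) and Ltf and Lcn2 (defense response).

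**Figure D4:**
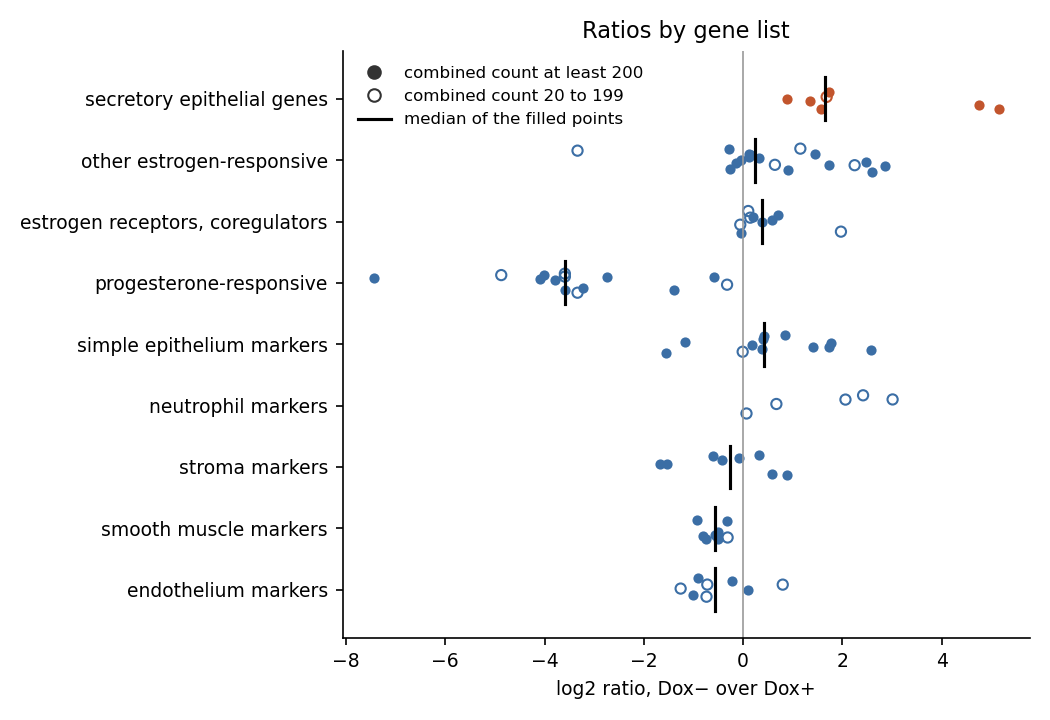
Log2 ratio, Dox− over Dox+, of single genes by list, with filled points for a combined count of at least 200, open points for lower counts of at least 20, and a bar at the median of the filled points. A gene without a tag in Dox− is drawn at the floor of 3 tags. All points of the secretory epithelial genes lie to the right of 0, and those of the progesterone-responsive list lie to the left.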

How the data were processed

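Digital gene expression profiling was used to count short sequence tags in 1 Dox+ and 1 Dox− library, each from RNA of 3 pooled uteri. The labels also mention fragmentation of mRNA, a step that tag profiling does not need, and this was not resolved. The deposited counts are of clean tags that the authors assigned to a single gene. Adaptor-only, low quality and single-copy tags had been removed, and alignment was to mm9 mouse mRNA. The study reports a larger share of clean tags as matching a single gene than the deposited counts hold. It also counted antisense tags, and whether this explains the difference was not examined. CASAVA is named in the submitters' processing notes, and the restriction enzyme and aligner are not given in the sources used here. The deposited TPM values are those counts relative to the clean tags of the library, as calculated by the authors, with 0.01 for a gene without a tag. The authors' ratio, log2 ratio, P-value and FDR columns were not used.

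The clean tag totals were recovered as the whole numbers that give every deposited TPM value after rounding, and 74.1% and 72.2% of clean tags were in the table. Ratios are Dox− over Dox+ shares of clean tags. Clopper-Pearson limits (exact, 95%) of the Dox− part of a gene's tags were converted to limits of the ratio, and ratios of ratios have exact conditional intervals. Calls and log2 ratios used 3 in place of any smaller count, and genes with both counts at or under 3 had no call. A count of 0 was given a fold against 3 tags of the library (0.501 TPM in Dox+ and 0.513 in Dox−). The minimum combined count of 200 follows the study's methods, and the 1.5-fold minimum is the one used in its results, whereas its methods state a smaller log2 minimum together with limits on P-value and FDR. Medians and counts of lists use genes at or above that minimum. The ratio and interval code was tested on simulated data.

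The genes described and the lists were chosen with earlier results of these data known. The text names all listed genes, relatives with a combined count of at least 20, the 3 genes of each other list with the most tags and those with the minimum count and at least 5-fold differences, and the markers without a row, except for some coregulators, which are not reported here. Others were named after their values were seen, among them Muc2, Muc5b, Klf4, Cebpb, C3, Areg, Hoxa10, Hoxa11 and Nr2f2. Older symbols were matched through RefSeq. Positions are on NCBIM37 (mm9) from GENCODE vM1. Promoters are RefSeq sequences of GRCm38.p6, placed on NCBIM37 by exact match, and none was found in the table used for Clca3. Alternatives were other library sizes, among them edgeR TMM, the deposited TPM, a pseudocount of 1, other minimum counts and folds, and subsets of the genes. Python 3.11.15, scipy 1.17.1, pandas 2.3.3, R 4.3.3 and edgeR 4.0.16 were used.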

Additional observations from a re-analysis of the deposited data

How the results depend on the processing

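With 1 library per condition no sample could be left out, and no paired analysis was possible because each condition has a single library. All 7 genes kept a positive log2 ratio under the 7 other scalings and units tried, and of these 49 values 41 stayed within the counting interval of the gene and 8 moved out of it. Those 8 came from the 2 epithelial scalings, which were chosen after seeing the data. Scaling to Krt8, Krt18 and Krt19 lowered every log2 ratio by 0.335 and left a median of 1.32 for the genes, and scaling to the 12 simple epithelium markers lowered them by 0.53 and left 1.13. Over all genes the keratin scale gave 383 at least 1.5-fold higher and 2044 lower and the simple epithelium scale 228 and 2885, against 994 and 961 by clean tags, and Clca3 was under 1.5-fold on both. The number of genes at least 1.5-fold higher was 6 of 6. Without Lcn2, Padi1 and Muc1 the number was 3 of the 3 left, which had to follow. At 5-fold it was 2. The median log2 ratio was 1.55 without Ltf and Lcn2, and the mean was 2.58, pulled up by Lcn2 and Padi1. The remaining alternatives kept the count within 1.5 times and moved the median by less than its counting range. Depth limits Padi1 and Lcn2 in Dox+, with 15 and 27 tags. Variation between animals could not be measured.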
